A study of Mus musculus with 6 samples.

Results

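The genes described here are 10 markers of the cells that wrap blood vessels and airways. They are 7 genes of the smooth muscle contractile apparatus (Acta2, Tagln, Myh11, Cnn1, Actg2, Mylk and Des) and 3 surface proteins of mural cells, the smooth muscle cells and pericytes of the vessel wall (Pdgfrb, Cspg4 and Notch3). They were chosen by symbol from the 24054 gene rows of the deposited table, and all 10 were found and passed the filter on low values that left 14159 genes. The lungs of 6 female SCID mice were sequenced, a strain without mature B and T cells, with 3 mice in each group and no age given in the labels. Each mouse had received CD9+CD63+CD81+ extracellular vesicles (EVs) by tail vein, made by neural progenitors of E15.5 mouse embryos that were either wild type (WT EV) or lacked Tsc1 (Tsc1-null EV). Both groups then received rat ELT3 cells intravenously after 48 h, a line used to model lymphangioleiomyomatosis, and their burden in the lung was assessed 72 h after that. The labels give no separate time for the RNA and do not say how many embryos gave each EV preparation. Mice given no EVs or no ELT3 cells were not analysed here.

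Smooth muscle contracts when myosin light chain kinase, activated by calcium and calmodulin, phosphorylates myosin so that it pulls on actin filaments. Serum response factor (SRF) with its coactivator myocardin drives most contractile genes, and mural cells are recruited and maintained by PDGF-B from endothelium acting on PDGFRB and by Jagged or Delta ligands acting on NOTCH3. In lymphangioleiomyomatosis, cells with defective TSC1 or TSC2 grow in the lung and carry smooth muscle proteins such as smooth muscle actin. Contractile genes can thus mark both the vessel wall and the disease cells.

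Libraries held 5101413 to 9358820 reads assigned to genes, and values are TMM-normalized CPM, the counts scaled to a common library size. The lung markers Sftpc, of alveolar type 2 cells, and Ager, of type 1 cells, were at 13095 to 29628 and 1671 to 3873 CPM. One library of each group differed from the rest, replicate 2 of WT EV and replicate 1 of Tsc1-null EV. Their median correlation with the other libraries was 0.963 and 0.942, against 0.980 to 0.982 elsewhere, and the nuclear RNA Malat1 was at 15673 and 30060 CPM against 1609 to 2819. Each of the 10 genes is expressed well above the filter. Their mean CPM over the 6 libraries ranked from the 63.7th percentile of tested genes for Cspg4 to the 98.7th for Mylk, and the lowest number of reads behind any value was 160, for Cspg4 in Tsc1-null EV replicate 1. In whole lung, fewer mural cells and less RNA per cell cannot be told apart, and whether reads of the rat cells were counted among those of the mouse was not tested.

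No member passed the test between the 2 types of EV. By limma, 0 of the 10 had an adjusted p under 0.05, where 0.0% of the 14159 genes tested did, and edgeR (background 0.0%) and DESeq2 (background 0.0778%) also called 0 of the 10. So did limma with sample weights, where 7.42% of all genes passed, and limma without both outlying libraries, where 0.164% did. Only Des had an unadjusted limma p under 0.05, 1 of 10 members where 6.57% of all genes tested did, 2.97% with a fold below 0. The groups overlapped for all 10 genes, while 13.1% of all genes tested had groups that did not overlap, 6.22% with all Tsc1-null EV lungs lower and 6.86% with all higher. All 10 log2 folds of CPM + 1 were below 0, from -0.43 for Des to -0.013 for Cspg4, with a median of -0.21, where 52.7% of all genes tested were below 0 and their median was -0.015. That count depended on which libraries were used. Without Tsc1-null EV replicate 1, in which all 10 genes were under their WT EV mean, 5 of 10 were below 0 (background 49.8%), without WT EV replicate 1 it was 6 of 10 (52.0%), and without both outlying libraries 7 of 10 (50.4%). It was 8 of 10 without Tsc1-null EV replicate 3 (52.2%), by edgeR (51.2%) and by DESeq2 (49.8%), and 6 of 10 with sample weights (50.9%). Leaving out Tsc1-null EV replicate 2 parted the groups for 4 members, all lower (Cnn1, Des, Myh11 and Notch3, background 9.69% lower). Leaving out WT EV replicate 3 parted them for Des and Mylk (background 9.0%), and leaving out Tsc1-null EV replicate 1 (14.3%) or both outlying libraries (21.5%) for Mylk.

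**Figure D1:**
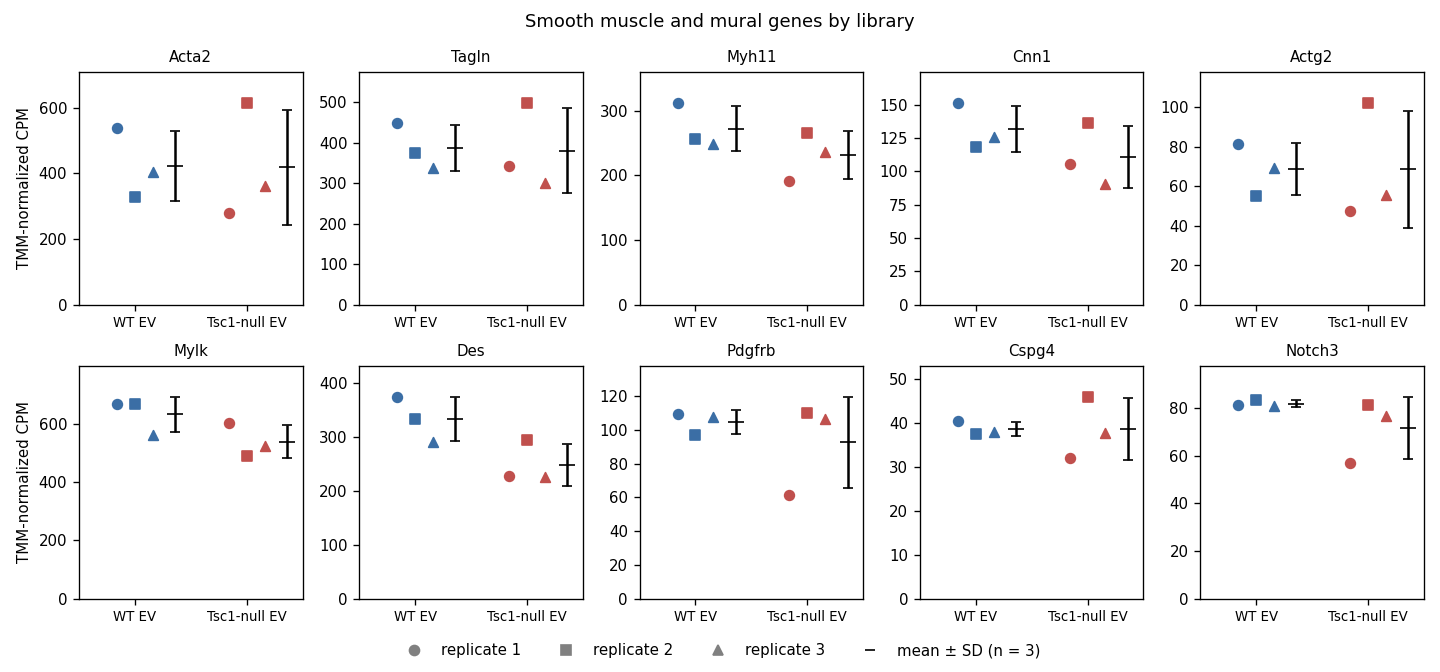
Level of each of the 10 genes in the 6 libraries, in TMM-normalized CPM on linear axes starting at 0, with WT EV in blue, Tsc1-null EV in red, a symbol shape for each replicate and black bars for the mean ± SD of 3 mice. The groups overlap in every panel, and the ratio of the highest to the lowest lung is larger with Tsc1-null EV than with WT EV for all 10 genes, at 2.21 against 1.64 for Acta2 and 1.44 against 1.03 for Notch3. How many of all genes share this was not computed, so whether it is particular to these genes is not known.

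Acta2 encodes smooth muscle alpha actin, the main thin filament protein of vascular smooth muscle, and Actg2 its gamma counterpart of gut and other visceral muscle. They encode nearly the same protein, so the last 90 coding bases of each, stop codon included, are shown with the cardiac actin Actc1, because these bases show how far reads can separate them. They come from GENCODE M21 transcripts (GRCm38), 5′ to 3′, and capitals mark bases that differ from Acta2.
Acta2: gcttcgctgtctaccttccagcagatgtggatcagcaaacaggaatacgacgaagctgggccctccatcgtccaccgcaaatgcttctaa
Actg2: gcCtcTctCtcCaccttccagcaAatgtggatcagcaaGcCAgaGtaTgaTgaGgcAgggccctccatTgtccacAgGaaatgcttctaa
Actc1: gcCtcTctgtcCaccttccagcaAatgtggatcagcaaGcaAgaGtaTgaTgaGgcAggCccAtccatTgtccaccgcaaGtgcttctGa
Actg2 and Actc1 each differed from Acta2 at 16 of these 90 bases. Over the whole reading frame, read back from the stop codon, 83.8% of bases in Actg2 and 82.5% in Actc1 matched Acta2. The longest identical run was 29 bases for Actg2 and 23 for Actc1. Of the 50-base words of Acta2 transcripts, 0.326% occurred in another gene (Actg1 and actin pseudogenes), and of those of Actg2 and Actc1 0.0%, so reads of that length tell these 3 genes apart.

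Acta2 stood at 537, 327 and 405 CPM in the WT EV lungs and at 278, 615 and 363 in the Tsc1-null EV lungs. Tsc1-null EV replicate 2 was the highest library and Tsc1-null EV replicate 1 the lowest, so the Tsc1-null EV group enclosed every WT EV value. The log2 fold was -0.065 ± 0.30 (SE, n = 3 mice per group; 95% interval -0.76 to 0.63, limma adjusted p = 0.980). Actg2 was at 81.4, 55.0 and 69.5 CPM with WT EV and at 47.7, 102 and 55.6 with Tsc1-null EV. The same 2 Tsc1-null EV libraries held its highest and lowest values, and the log2 fold was -0.063 ± 0.28 (95% interval -0.71 to 0.58, adjusted p = 0.979). Within each library Actg2 reached 15.1% to 17.2% of the CPM of Acta2, a narrow range beside the 2.21-fold spread of Acta2 over the Tsc1-null EV lungs. The direction of both folds turned with the libraries used. Without Tsc1-null EV replicate 1 they were 0.19 for Acta2 and 0.15 for Actg2, and without Tsc1-null EV replicate 2 they were -0.38 and -0.39.

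Tagln, Cnn1 and Myh11 are further contractile markers. Tagln encodes transgelin, an actin-binding protein of early smooth muscle, and was at 448, 373 and 336 CPM with WT EV and at 343, 498 and 299 with Tsc1-null EV. The highest and the lowest library were both Tsc1-null EV, and the log2 fold was -0.045 ± 0.22 (adjusted p = 0.980). Of the 50-base words of Tagln transcripts 47.6% are also antisense to another gene, 43.8% to Gm48529 and 3.75% to Pcsk7, which was at 21.0 to 32.1 CPM. No source used here says whether counting used strand, so reads of Tagln may include reads of these partners.

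Cnn1, the thin filament protein calponin 1, stood at 151, 118 and 126 CPM with WT EV and at 105, 137 and 90.7 with Tsc1-null EV. Tsc1-null EV replicates 1 and 3 were below all WT EV lungs, replicate 2 was inside their range, and the log2 fold was -0.26 ± 0.19 (95% interval -0.68 to 0.17, adjusted p = 0.790). Myh11, the smooth muscle myosin heavy chain and the most specific marker of differentiated smooth muscle, was at 313, 257 and 248 CPM with WT EV and at 191, 265 and 237 with Tsc1-null EV. On GRCm38 by GENCODE M21, these 3 genes lie at chr9:45929619-45936058 (Tagln, minus strand), chr9:22099216-22109630 (Cnn1, plus strand) and chr16:14194535-14291372 (Myh11, minus strand). Myh11 showed the same arrangement as Cnn1, with replicates 1 and 3 under every WT EV lung and replicate 2 among them. Its log2 fold was -0.24 ± 0.18 (95% interval -0.64 to 0.16, adjusted p = 0.792). Single libraries moved both folds by over 1.5 times. Without WT EV replicate 1 they were -0.15 for Cnn1 and -0.14 for Myh11. Myh11 was at -0.11 without Tsc1-null EV replicate 1, and Cnn1 at -0.12 without Tsc1-null EV replicate 3 and -0.42 without replicate 2.

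Mylk encodes myosin light chain kinase, made in a long and a short form, and from an internal start the small protein telokin. Values are totals over the gene, at chr16:34745210-35002420 on the plus strand. It was at 669, 667 and 562 CPM with WT EV and at 602, 491 and 525 with Tsc1-null EV. Its order differed from that of the actins: Tsc1-null EV replicate 2, the highest library for Acta2, was the lowest for Mylk, and the outlying Tsc1-null EV replicate 1 was the highest of its group. The groups overlapped through that library alone, at 602 against 562 in WT EV replicate 3. The log2 fold was -0.23 ± 0.17 (95% interval -0.61 to 0.15, adjusted p = 0.794), and it was -0.31 without Tsc1-null EV replicate 1 (adjusted p = 0.590). Mylk was below 0 in all 17 alternative settings, from -0.31 to -0.16, with adjusted p from 0.204 to 0.995.

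Des, which encodes the muscle intermediate filament desmin, was the member farthest from 0. It stood at 375, 334 and 292 CPM with WT EV and at 228, 294 and 225 with Tsc1-null EV. Tsc1-null EV replicates 1 and 3 lay below every WT EV lung, and the overlap was between Tsc1-null EV replicate 2 at 294 and WT EV replicate 3 at 292. The log2 fold was -0.43 ± 0.17 (95% interval -0.82 to -0.031, limma unadjusted p = 0.0376, adjusted p = 0.721), and 7.18% of all genes tested had a lower fold. It was below 0 in all 17 alternatives, from -0.55 without Tsc1-null EV replicate 2 to -0.14 with sample weights, and its adjusted p ranged from 0.472 to 0.995. Desmin is shared by smooth, heart and skeletal muscle. All 10 genes of the heart muscle list, which holds Actc1 and Myl1 too, were below 0 as well (background 52.7%). Their median was -1.12. Their summed level was 437 to 785 CPM with WT EV and 169 to 597 with Tsc1-null EV, and Nppa, the atrial natriuretic peptide gene, was listed at 0 in Tsc1-null EV replicates 1 and 3. By library the sum was 712, 437 and 785 CPM with WT EV and 169, 597 and 427 with Tsc1-null EV. WT EV replicate 3 had the highest heart sum and the lowest Des of its group. Tsc1-null EV replicate 1 had the lowest heart sum, with Des at 228 CPM. Actc1, whose profile was close to that of Acta2, gave 67.0 of the 169 CPM in Tsc1-null EV replicate 1. Which cells its reads came from was not tested. The 8 skeletal muscle markers summed to 24.8 to 44.4 and 21.0 to 33.1 CPM, 4 of them passed the filter, and Myh1 and Myh4 were listed at 0 in WT EV replicate 2. Ryr2 of the heart list and Tnnt3 of the skeletal list had groups that did not overlap, lower with Tsc1-null EV (background 6.22% lower). Ryr2 was named after its values were seen. The part of these muscles in the level of Des was not tested.

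**Figure D2:**
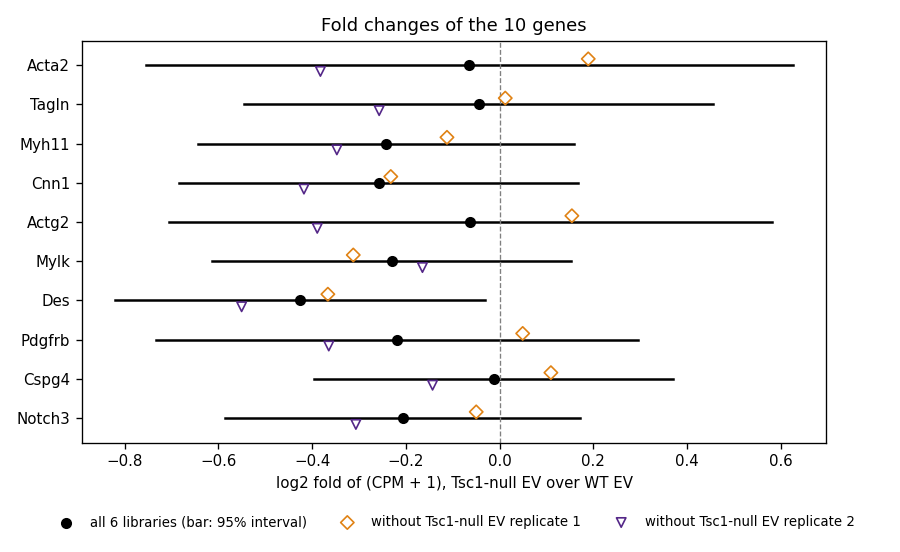
Log2 fold of CPM + 1, Tsc1-null EV over WT EV, for each gene: black points and bars give the limma estimate and its 95% interval with all 6 libraries, orange diamonds the estimate without Tsc1-null EV replicate 1 and purple triangles that without Tsc1-null EV replicate 2. The interval of Des, from -0.82 to -0.031, is the 1 interval that does not include 0, and Acta2 moves from 0.19 to -0.38 depending on which library is left out.

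The stretches before the start of Des and Acta2 are shown because Des had the fold farthest from 0, and because Acta2 is a textbook target of the RBPJ factor through which NOTCH3 signals. They come from RefSeq (build GRCm38.p6), which held an upstream stretch for 6 of the members (Acta2, Cnn1, Mylk, Des, Cspg4 and Notch3), and are written 5′ to 3′ on the strand of the gene. Des lies on chr1:75360329-75368579 of GRCm38 by GENCODE M21, on the plus strand. Its 250 bases before the start are chr1:75360042-75360291, and capitals mark CANNTG, the E box bound by basic helix-loop-helix factors. For Acta2 (chr19:34241090-34255590, minus strand) windows of 30 bases are given with capitals on CATTCC, here as its reverse complement, the MCAT element of TEAD factors, at chr19:34255502-34255531, and on the RBPJ core TGGGAA at chr19:34255383-34255412. Both windows lie before the RefSeq start and inside the span that GENCODE gives for the gene.
Des: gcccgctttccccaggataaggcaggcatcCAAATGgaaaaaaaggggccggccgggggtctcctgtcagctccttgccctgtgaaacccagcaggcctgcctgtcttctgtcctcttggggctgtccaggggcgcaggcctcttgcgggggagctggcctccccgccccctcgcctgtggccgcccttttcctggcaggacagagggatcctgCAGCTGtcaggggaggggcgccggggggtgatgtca
Acta2 MCAT: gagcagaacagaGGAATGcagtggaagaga
Acta2 RBPJ: ttgctccttgttTGGGAAgcgagtgggagg
Searched on both strands in the 250 bases before the start, TGGGAA occurred in Acta2, 27 bases before the start, and in no other of the 6, where 21.6% of 32851 RefSeq starts held it. CATTCC occurred in Acta2 and Mylk, where 12.6% of all starts held it, and CANNTG in Acta2, Cnn1 and Des (66.2%). An exact CArG box, the SRF element (CC, then 6 bases that are each A or T, then GG), was in 0 of the 6 and in 1.47% of all starts. In the RBPJ window of Acta2, CCTTGTTTGG misses that pattern only by its inner G, and its end overlaps the capitals. These are matches of letters in a short window, and none was tested for binding.

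A single library, Tsc1-null EV replicate 1, was the lowest for all 3 mural receptors. Pdgfrb, the PDGF receptor beta that pericytes need to be recruited, stood at 109.7, 96.9 and 108 CPM with WT EV and at 61.5, 110.0 and 107 with Tsc1-null EV. Tsc1-null EV replicate 1 was far below all other lungs, and the other 2 Tsc1-null EV lungs lay within or just above the WT EV range. The log2 fold was -0.22 ± 0.23 (95% interval -0.73 to 0.29, adjusted p = 0.863), and 0.049 without Tsc1-null EV replicate 1. Notch3, the Notch receptor of arterial smooth muscle and pericytes, was at 81.4, 83.5 and 80.8 CPM with WT EV, the tightest group of any member, with a highest to lowest ratio of 1.03. With Tsc1-null EV it was at 56.7, 81.4 and 76.8, again with replicate 1 lowest. Its log2 fold was -0.21 ± 0.17 (adjusted p = 0.810), and -0.050 without that library. Of the 50-base words of Notch3 4.87% are antisense to Gm17276. For Des it was 5.81%, to Gm15179, which was listed at 0 CPM in every library. For Mylk it was 2.39% to E130310I04Rik and 1.75% to Gm21691.

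Cspg4, the proteoglycan NG2 carried by pericytes, was at 40.4, 37.3 and 38.0 CPM with WT EV and at 32.1, 45.9 and 37.8 with Tsc1-null EV. Tsc1-null EV held both its lowest and its highest lung, and the means of the groups were 38.57 ± 1.60 and 38.60 ± 6.97 (SD, n = 3). The log2 fold was -0.013 ± 0.17 (95% interval -0.39 to 0.37, adjusted p = 0.995). The direction of Cspg4 was above 0 by edgeR (0.0054) and DESeq2 (0.012), as it was for Actg2 (0.0039 and 0.0059).

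Seen by library, the members did not move as a block. Tsc1-null EV replicate 1 had all 10 genes under the WT EV mean, with a median deviation of -0.50 on the log2 scale, and was the lowest library for 6 of them. Tsc1-null EV replicate 2 was the highest library for 5 (Acta2, Tagln, Actg2, Pdgfrb and Cspg4) and the lowest for Mylk, with a median deviation of 0.066. Tsc1-null EV replicate 3 had 9 of 10 under the WT EV mean, and all 7 contractile genes with a median of -0.28, while its 3 receptors had a median of -0.028. WT EV replicate 1 was the highest library for the remaining contractile genes, Myh11, Cnn1, Mylk and Des. Notch3, at 76.8 CPM in Tsc1-null EV replicate 3, was the 1 receptor there below every WT EV lung, and Acta2 and Actg2 were above WT EV replicate 2 in it. Contractile genes and receptors were not tested against each other.

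**Figure D3:**
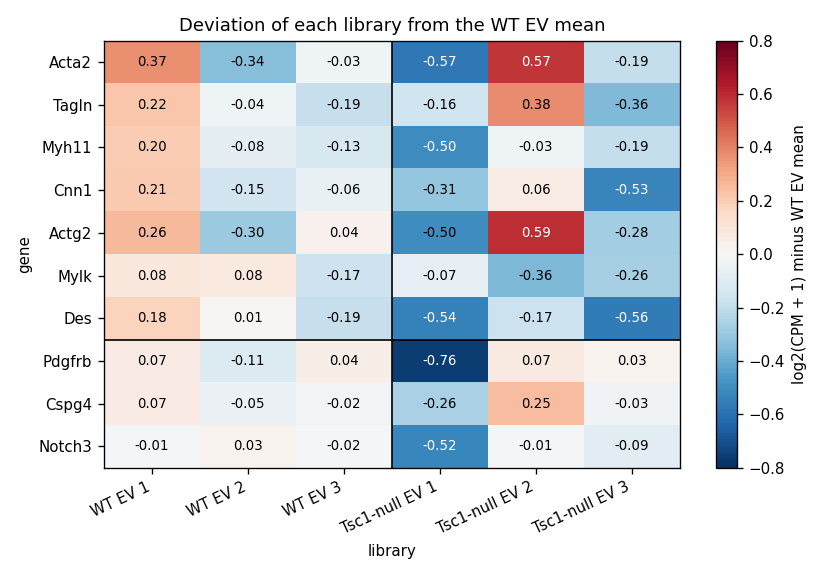
Deviation of log2(CPM + 1) from the mean of the 3 WT EV lungs, for each gene (rows, contractile genes above the line and receptors below) in each library (columns, WT EV left of the line), with red above and blue below that mean. The column of Tsc1-null EV replicate 1 is below 0 for all 10 genes, and the column of Tsc1-null EV replicate 2 runs from 0.59 for Actg2 to -0.36 for Mylk.

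Per kilobase of the longest coding transcript in GENCODE M21, Tagln and Acta2 had the highest levels of the 10, at 240.0 ± 47.3 and 207 ± 63.7 CPM per kb (SD over 6 libraries). These 2 overlapped, and the lowest Acta2 value, 137, was above the highest of Des, 124. Des (96.2 ± 19.4), Mylk (74.9 ± 9.40), Actg2 (51.5 ± 15.4), Cnn1 (50.9 ± 9.13) and Myh11 (38.5 ± 6.03) followed in CPM per kb, and each overlapped the next. Pdgfrb (18.2 ± 3.48), Notch3 (9.58 ± 1.25) and Cspg4 (4.75 ± 0.56) came last in CPM per kb, each in all 6 libraries below the lowest value of the gene before it. The contractile genes were thus at higher levels per length than the mural receptors in these lungs.

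Ratios of CPM within a library compare members whatever their common level. Mylk stood at 79.8% to 217% of Acta2, Des at 47.8% to 102%, and Myh11 at 43.1% to 78.6%, and the groups overlapped in each. All 3 ratios were lowest in Tsc1-null EV replicate 2. Des reached 130.0% of Myh11 in WT EV replicate 2 and was lowest beside it in Tsc1-null EV replicate 3. Notch3 kept to 71.9% to 92.2% of Pdgfrb, and both ends of that range were Tsc1-null EV lungs. None of the 10 ratios computed separated the groups.

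By the smallest root mean square difference of centred log2(CPM + 1) profiles over the 6 libraries, the genes most like Acta2 among 11257 compared were Actc1 (0.070), Abcc9 (0.089), Nrn1 (0.11) and Srpx (0.13), where the median over those genes was 0.44. Abcc9 encodes a potassium channel subunit of pericytes and smooth muscle, and Actc1 the cardiac actin. Actg2, itself a member, was at 0.075. Actc1 was at 100.2 ± 17.5 CPM with WT EV and 100.6 ± 39.8 with Tsc1-null EV, and had the fold nearest to 0 of the 10 heart markers (-0.052), whose lowest was Nppa at -2.07. Mylk was farther from Acta2 (0.48) than that median. The genes most like Pdgfrb were Mpp1, Colec12, Psmb9 and Cnpy4, at differences of 0.028 to 0.048, and those most like Des were C1s2, Dgkg, Hspb2 and Zfp560, at 0.074 to 0.082. Libraries share depth and composition across all these genes, so a like profile is a description of these 6 libraries only.

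**Figure D4:**
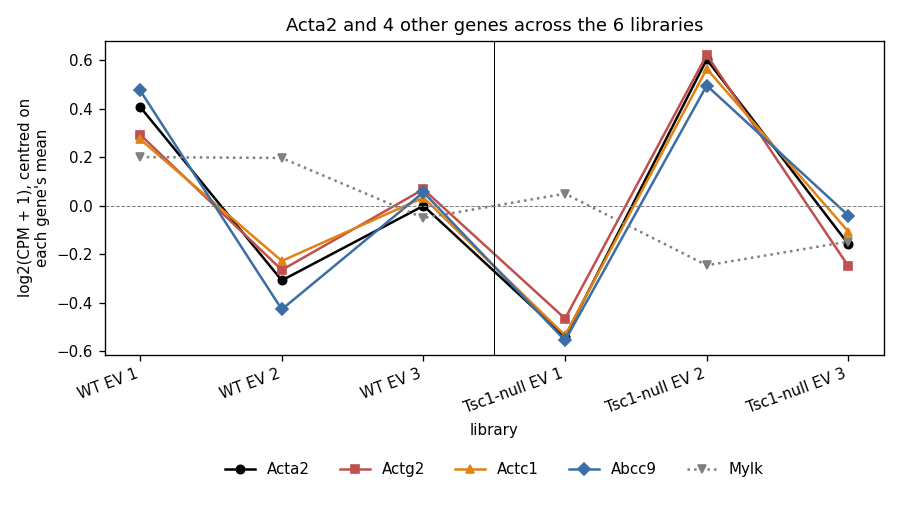
Log2(CPM + 1) of Acta2, Actg2, Actc1, Abcc9 and Mylk in the 6 libraries, each centred on its own mean, with lines joining the points of a gene only to guide the eye (libraries have no order). The first 4 genes lie close together in every library and are highest in Tsc1-null EV replicate 2, where Mylk (dotted) is lowest.

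Of 23 other smooth muscle contractile and cytoskeletal genes, 0 passed the test, 17 were below 0 (background 52.7%) and 6 above. Their median log2 fold was -0.045. The members with the highest CPM were Myl6, a myosin light chain, at 898 ± 28.3 with WT EV and 841 ± 123 with Tsc1-null EV, the actin crosslinker Flna at 531 ± 54.4 and 549 ± 183, and Csrp1, a LIM protein, at 443 ± 70.2 and 472 ± 85.1. Their groups overlapped. Beside a background of 6.22% of genes lower in all 3, Synm, an intermediate filament partner of desmin, and Ppp1r14a, an inhibitor of myosin phosphatase, were the 2 whose groups did not overlap, named after their values were seen. Synm was at 129, 183 and 128 CPM against 116, 103 and 119 (log2 fold -0.36 ± 0.18), and Ppp1r14a at 124, 114 and 123 against 63.3, 110.3 and 102 (-0.43 ± 0.21), both with a limma adjusted p of 0.721. The 11 regulators around SRF and myocardin also had 0 calls, 8 below 0 (background 52.7%) and a median of -0.072. Srf itself was the 1 regulator whose groups did not overlap, and it lay higher with Tsc1-null EV than with WT EV (background 6.86%), at 59.0, 62.2 and 54.5 against 72.4, 69.9 and 66.5 CPM (log2 fold 0.25 ± 0.13, adjusted p = 0.740, named after its values were seen). Klf4, Tead1 and Hexim1, with the highest CPM of that list, overlapped, with folds of -0.087, -0.17 and -0.060.

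Of 14 other pericyte markers, 0 passed, 10 were below 0 (background 52.7%) and the median log2 fold was -0.24. Mcam, an adhesion molecule, was at 236 ± 23.0 CPM with WT EV and 209 ± 38.4 with Tsc1-null EV, and the guanylate cyclase subunits Gucy1a3 and Gucy1b3 at 160.0 ± 30.9 and 116 ± 40.4 and at 113 ± 28.9 and 91.8 ± 22.0, all with overlapping groups. The cation channel Trpc6 was the 1 marker whose groups did not overlap, at 15.4, 21.2 and 18.4 against 9.02, 13.9 and 14.0 CPM (log2 fold -0.55 ± 0.22, adjusted p = 0.721, named after its values were seen), and 6.22% of all genes tested were likewise lower. The summed level of these markers was 761 to 989 CPM with WT EV and 564 to 893 with Tsc1-null EV, lowest in Tsc1-null EV replicate 1, the library that was also lowest for all 3 receptors.

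Of the PDGF ligands and the other receptor, 0 of 5 passed and all 5 were below 0 (background 52.7%). Pdgfra, the receptor of fibroblasts, was at 172 ± 18.4 and 139 ± 56.1 CPM, Pdgfb, the endothelial ligand of PDGFRB, at 146 ± 23.9 and 112 ± 35.1, and Pdgfa at 68.4 ± 4.93 and 64.2 ± 8.31. Of 12 Notch ligands, other receptors and targets, 0 passed, 8 were above 0 and 4 below (background 52.7% below), with a median of 0.13. Hes1, a target, was at 200 ± 47.6 and 248 ± 119 CPM, Notch1 at 183 ± 10.0 and 186 ± 8.45, and Notch4, the endothelial receptor, at 130.3 ± 42.5 and 86.4 ± 21.6. The groups did not overlap for 4 Notch genes, named after their values were seen, in opposite directions, where 13.1% of all genes tested did not overlap (6.86% higher and 6.22% lower). Every Tsc1-null EV lung lay above every WT EV lung for Notch2 and the feedback inhibitor Nrarp (log2 folds 0.25 and 0.44), and below for the ligand Dll4 and the target Hey1 (-0.50 and -0.37), each with an adjusted p of 0.721 to 0.728.

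Of 8 listed genes tied to lymphangioleiomyomatosis, 6 passed the filter on low values and 0 the test. Of the 6, 3 were above 0 and 3 below (background 52.7% below). The melanocyte gene Pmel and the oestrogen receptor gene Esr1 did not pass that filter. Figf, which encodes the lymphatic growth factor VEGF-D, was at 68.6 ± 10.5 and 58.0 ± 32.5 CPM, and Gpnmb, a glycoprotein of macrophages and of lymphangioleiomyomatosis cells, at 22.6 ± 10.4 and 47.8 ± 29.6, both overlapping. Ctsk, the protease cathepsin K, was at 32.8, 19.5 and 26.2 CPM with WT EV and at 35.1, 49.7 and 35.6 with Tsc1-null EV, so the groups did not overlap (log2 fold 0.61 ± 0.23, unadjusted p = 0.0252, adjusted p = 0.721, named after its values were seen). Over all genes tested, 6.86% were likewise higher and 6.57% had an unadjusted p under 0.05.

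Markers of other lung cells were summed in the same libraries. All 10 endothelial markers were below 0 (background 52.7%), with a median of -0.33. They summed to 3750 to 4657 CPM with WT EV and 2638 to 4421 with Tsc1-null EV. Tsc1-null EV replicate 1, lowest for the receptors, held the lowest endothelial (2638), mesothelial (237) and heart muscle (169) sums. Of 7 mesothelial markers 6 were below 0 (background 52.7%), at sums of 633 to 1203 and 237 to 697 CPM. Fibroblast markers went the other way in count, 7 of 10 above 0 with a median of 0.11, at 2524, 1772 and 2627 CPM with WT EV and 1859, 4003 and 3492 with Tsc1-null EV. Their folds ran from -0.72 for Tcf21 to 0.85 for Col3a1. The 2 fibroblast markers whose groups did not overlap, Dcn and Col13a1, were lower with Tsc1-null EV, named after their values were seen. So were Egfl7 and Sox17 of the endothelial and Wt1 and Gpm6a of the mesothelial markers (background 6.22% lower). Tsc1-null EV replicate 2 had the highest fibroblast sum and the highest Acta2, while replicate 3 had the next highest sum and Acta2 under its WT EV mean. None of the 10 endothelial, 10 fibroblast or 7 mesothelial markers was at 0 in any library. The part of these cells in the levels of the 10 members was not tested.

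**Figure D5:**
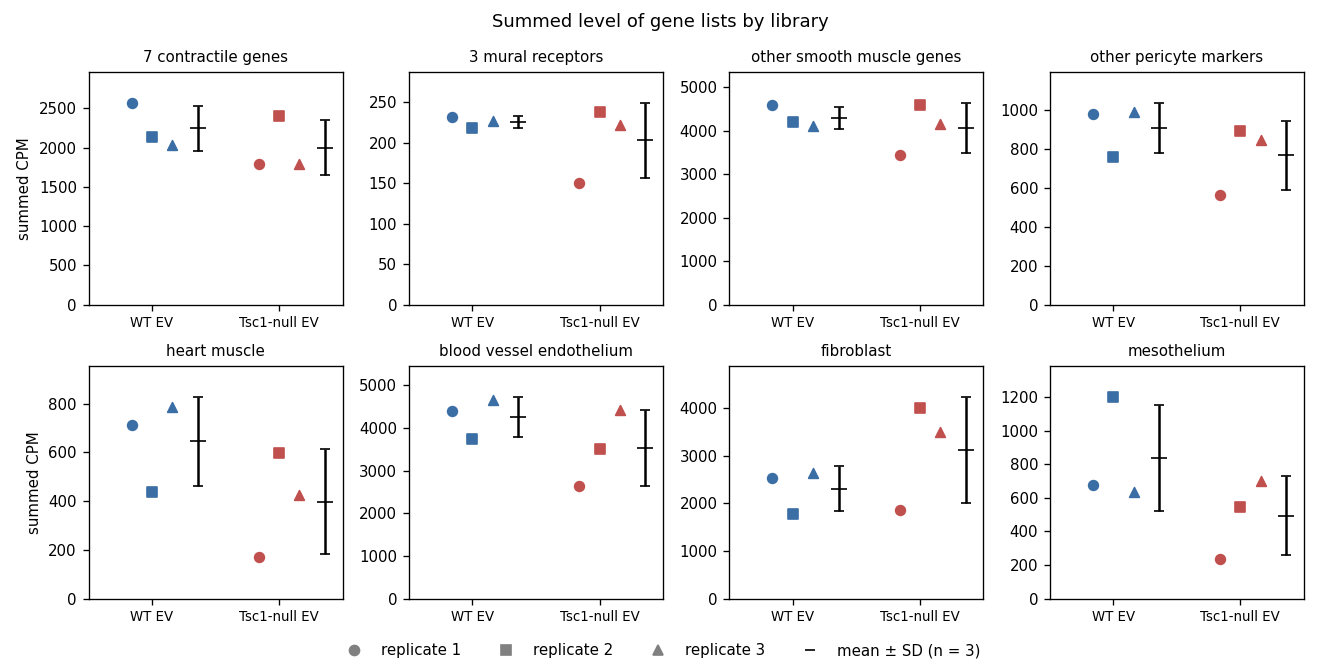
Summed CPM of 8 gene lists in the 6 libraries on linear axes starting at 0, with WT EV in blue, Tsc1-null EV in red, a symbol shape for each replicate and black bars for the mean ± SD of 3 mice. Tsc1-null EV replicate 1 (red circle) is the lowest point for the receptors (150), other smooth muscle, pericyte, heart, endothelial and mesothelial lists. The groups overlap in all 8 panels.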

How the data were processed

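Lung RNA of 6 mice (3 WT EV, 3 Tsc1-null EV) was sequenced as Illumina paired-end reads of 50 to 151 bases after trimming, per the labels' protocols. The 1 table deposited by the authors holds a TMM-normalized signal per gene and library, taken here as CPM because its columns sum to 964931 to 1022663. The submitters' processing notes name Bowtie2 2.1.0, RSEM 1.2.15, edgeR and mm10 without saying how each was used. No source used here gives the annotation, filters or strand use. All values (100%) were whole multiples of 1 step per column, within 0.001 reads, so reads could be recovered. Whether mice were handled separately is not stated, so p-values measure only the spread between these samples.

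Groups follow the treatment label. Genes averaging at least 1 CPM were kept (14159 of 24054). Their log2(CPM + 1) was compared with limma 3.58.1 (R 4.3.3, trended prior, two-sided, Benjamini-Hochberg over all genes, threshold 0.05); folds on this scale are understated for low genes. Alternatives changed the pseudocount (0.5, 0.1), filter (none, 5), scaling (median, quantile), trend, sample weights or test (edgeR 4.0.16 and DESeq2 1.42.0 on recovered reads), or left out each replicate; leaving out both outlying libraries was chosen after seeing the data. Scripts were tested on simulated data. Members, lists and rules were chosen with earlier results of these data known. The rule named all 10 members, the 3 highest genes of each list and the 4 genes nearest in profile to Acta2, Pdgfrb and Des (mean at least 5, predicted genes left out). Shared sequence is the percentage of 50-base words of a gene found on either strand of other GENCODE M21 genes' transcripts.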

Additional observations from a re-analysis of the deposited data

How the results depend on the processing

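Des, Mylk, Myh11, Cnn1 and Notch3 kept a log2 fold below 0 in all 17 alternatives, and no member had an adjusted p under 0.05 in any. With sample weights these folds came nearest to 0 for Myh11 (-0.0085), Cnn1 (-0.028) and Notch3 (-0.030), and for Des (-0.14). The weights were 4.19 for WT EV replicate 3, 3.95 for Tsc1-null EV replicate 2 and 0.21 to 0.93 elsewhere. That fit, with its calls, thus rested mostly on 1 lung of each group. Folds above 0 were found with sample weights for Acta2 (0.39), Tagln (0.35), Actg2 (0.36) and Cspg4 (0.19). Without both outlying libraries they were 0.019 for Acta2, 0.0059 for Actg2 and 0.087 for Cspg4, and by edgeR and DESeq2 0.0039 and 0.0059 for Actg2 and 0.0054 and 0.012 for Cspg4. Leaving out 1 library gave ranges of -0.38 to 0.19 for Acta2, -0.26 to 0.11 for Tagln, -0.39 to 0.15 for Actg2, -0.36 to 0.049 for Pdgfrb and -0.14 to 0.11 for Cspg4. The cause was not tested.

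The number of members below 0 was 6 with sample weights and 5 to 10 with 1 library left out. Members whose groups did not overlap numbered 0 to 4 with 1 library left out. These were 4 without Tsc1-null EV replicate 2 (Cnn1, Des, Myh11 and Notch3, background 9.69% lower), 2 without WT EV replicate 3 (Des and Mylk, 9.0%) and 1, Mylk, without Tsc1-null EV replicate 1 (14.3%) or without both outlying libraries (21.5%), where fewer samples make overlap rarer. The receptor median was -0.31 to 0.049 with 1 library left out. Over all genes, 1050 were called with sample weights, 11 by DESeq2, 23 without both libraries and 0 to 2 with 1 library left out, against 0. No paired analysis was possible because the labels number the 6 samples separately. With 3 mice a group, the 95% intervals were 0.76 to 1.38 wide on the log2 scale for the 10 members.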
